A study of Mus musculus with 6 samples.

Results

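Astrocyte identity genes and genes of reactive astrocytes were followed in RNA-seq libraries of mouse primary microglia (PM). The list held 37 genes, 20 of astrocyte identity and 17 of the reactive state, and was chosen by symbol to read the astrocyte RNA in the PM libraries. Of these, 36 matched a feature among the 24411 genes of the count tables. Aldoc2 matched none and has no value. In all, 28 members were among the 10133 genes that had enough counts to be tested.

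Brains of neonatal ICR mice were pooled and grown as mixed glia, and PM were then shaken off and plated again. The study asked how GSK-J4, an inhibitor of the H3K27 demethylases, changes the response of microglia to LPS, the ligand of TLR4. The libraries compared were 3 of PM given GSK-J4 (10 μM) and 3 of PM given LPS (10 ng/ml) together with GSK-J4 (10 μM), all for 4 h. Every cell culture here had received GSK-J4, so each fold change compares cultures with and without added LPS in the presence of the inhibitor. Untreated PM and PM with LPS alone were not analysed here. Shaking can carry some astrocytes and other glia into the plated cells, and the cells were not sorted before RNA extraction, although by flow cytometry most of them carried CD11b, a surface protein of microglia and macrophages.

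Astrocytes are the glial cells that clear glutamate and potassium from around synapses, couple to each other through gap junctions and line blood vessels with endfeet rich in water channels. After injury or exposure to inflammatory signals they become reactive, with more GFAP and vimentin filaments and a set of induced secreted proteins and receptors. Some genes of that reactive set, such as Srgn, Cd44, Vim, Timp1 and Fkbp5, are also transcribed in macrophages and microglia, whereas Gfap, Aqp4, Gja1, Mlc1 and Slc1a2 are used as genes of astrocytes in the brain.

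The libraries held 2597505 to 3472716 fragments assigned to a gene. Values are TMM-scaled CPM, the counts of a gene relative to the size of its library, in which 3 counts in a library equal 0.673 to 1.24 CPM, a floor that covers counting error only. The ribosomal precursor Rn45s took 22.2 to 32.4% of the counts in GSK-J4 and 45.8 to 48.1% in LPS + GSK-J4, so raw counts of other genes cannot be set side by side. Without Rn45s, Mir6236 and Lars2, 2283295, 2443344 and 1499693 counts were left in GSK-J4 replicates 1, 2 and 3. In LPS + GSK-J4, 1374377 to 1444886 were left, so depth differed between the groups. Replicate 3 of both groups was parted from replicates 1 and 2 by the second principal component (16.4% of the variance), and the results below that it decides are given with and without it. A member was taken to have risen or fallen when edgeR's quasi-likelihood test over all 10133 genes gave an adjusted p (Benjamini-Hochberg) no higher than 0.01. It was called when its log2 fold change was also at least 1.5 in size.

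Several genes of microglia and macrophages were abundant, as the label of the cells implies. Per kilobase of exon, Csf1r was at 131 CPM and Cd68 at 478 CPM in GSK-J4. Tmem119, P2ry12 and Siglech, which mark microglia in the intact brain, were low, at 2.16, 5.19 and 0.0944 CPM per kilobase. Aif1, Sall1 and Gpr34 were low as well, at 4.16, 0.979 and 0.863. The rest of the 14 microglia markers were at 14.3 CPM per kilobase (Ptprc) or above. Defining genes of astrocytes were present but far lower than Csf1r and Cd68, within the range of the low microglia genes. Gfap was at 3.99 CPM per kilobase in GSK-J4, Gja1 at 2.02 and Aqp4 at 1.23. In bulk RNA, a change in the number of cells of a type and a change in the RNA of a gene per cell cannot be told apart, here or in any result that follows.

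The promoters of 3 of the members with the largest fold changes are shown, since these genes moved together. RefSeq (GRCm38.p6, the assembly of mm10) gave promoters for 31 of the 36 members, and none for Aqp4, Atp1b2, Clu, Sox9 and Sparcl1. Each line gives the 250 bases before the RefSeq start, 5′ to 3′ on the strand of the gene, and capitals mark a motif that was found. The gene positions given below are from another annotation (GENCODE), and the windows of Mlc1 and Gfap lie inside them. S1pr3 lies at chr13:51408368-51408617 on the plus strand, Mlc1 at chr15:88978554-88978803 and Gfap at chr11:102897201-102897450, both on the minus strand.
S1pr3: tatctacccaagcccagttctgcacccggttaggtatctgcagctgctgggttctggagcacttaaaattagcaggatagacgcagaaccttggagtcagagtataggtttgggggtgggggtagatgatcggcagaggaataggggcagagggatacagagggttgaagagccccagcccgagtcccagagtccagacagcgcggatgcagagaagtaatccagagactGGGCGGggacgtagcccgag
Mlc1: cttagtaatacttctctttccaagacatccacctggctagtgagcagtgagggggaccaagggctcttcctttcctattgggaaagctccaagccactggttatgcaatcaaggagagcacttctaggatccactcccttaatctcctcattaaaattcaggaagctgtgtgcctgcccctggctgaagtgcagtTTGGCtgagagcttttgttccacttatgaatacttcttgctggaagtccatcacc
Gfap: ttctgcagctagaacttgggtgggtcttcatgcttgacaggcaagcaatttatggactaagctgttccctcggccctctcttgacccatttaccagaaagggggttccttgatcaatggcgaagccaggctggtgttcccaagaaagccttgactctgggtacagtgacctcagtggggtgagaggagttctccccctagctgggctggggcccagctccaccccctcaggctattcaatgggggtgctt

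On both strands of these windows, motifs of AP-1 (TGANTCA), STAT (TTCNNNGAA), NF-kB, SOX factors (ACAAT), the NFI half-site (TTGGC) and the GC box (GGGCGG) were searched. S1pr3 held a GC box 20 to 15 bases before the start, Mlc1 an NFI half-site 55 to 51 bases before it, and Gfap none of the 6. Among all 32851 promoter windows of this length, 32.7% held a GC box and 41.5% an NFI half-site. Among the 38 windows of the 31 members, the shares were 42.1% and 57.9%. Shares of members and of all windows were not tested against each other. A STAT motif was found in 7.02% of all windows and in 13.2% of the member windows, those of Acsbg1, Emp1, Ntsr2, Slc1a3 and Steap4. An NF-kB motif was found in 7.25% of all windows and in 10.5% of the member windows (Acsbg1, Ntsr2, Steap4 and Vim). For an AP-1 motif the shares were 6.75% and 7.89% (Cp, Emp1 and Gja1). The SOX motif went the other way, with 27.7% of all windows and 26.3% of the member windows. None of the 3 promoters shown held an AP-1, STAT, NF-kB or SOX motif.

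In LPS + GSK-J4, 17 of the 28 tested members were higher than in GSK-J4 at the adjusted p, and 0 were lower. Over all 10133 genes, 8.42% were higher and 5.46% lower by the same rule. Of the members, 5 were called higher (Gfap, Mlc1, Clu, Sox9 and S1pr3) and 0 lower, where the share over all genes was 2.95% higher and 0.809% lower. At an unadjusted p under 0.05, 0 members were lower as well, and DESeq2 also gave 0. The 3 LPS + GSK-J4 libraries lay above all GSK-J4 libraries for 19 of the 28 members and below them for 0, beside 19.8% and 18.4% of all genes. The median log2 fold change was 1.24 over the tested members and -0.00 over all genes tested. The members that were tested had to pass a filter on low counts. In all, 23 of them reached its level in each GSK-J4 library, and these held all 17 that rose. The other 5 (Aldh1l1, Slc1a2, Slc1a3, Fgfr3 and Serpina3n) reached it in fewer than 3. The number called depended on single libraries. It was 10 without LPS + GSK-J4 replicate 1 and 3 without LPS + GSK-J4 replicate 3, where Clu and Sox9 were lost.

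**Figure D1:**
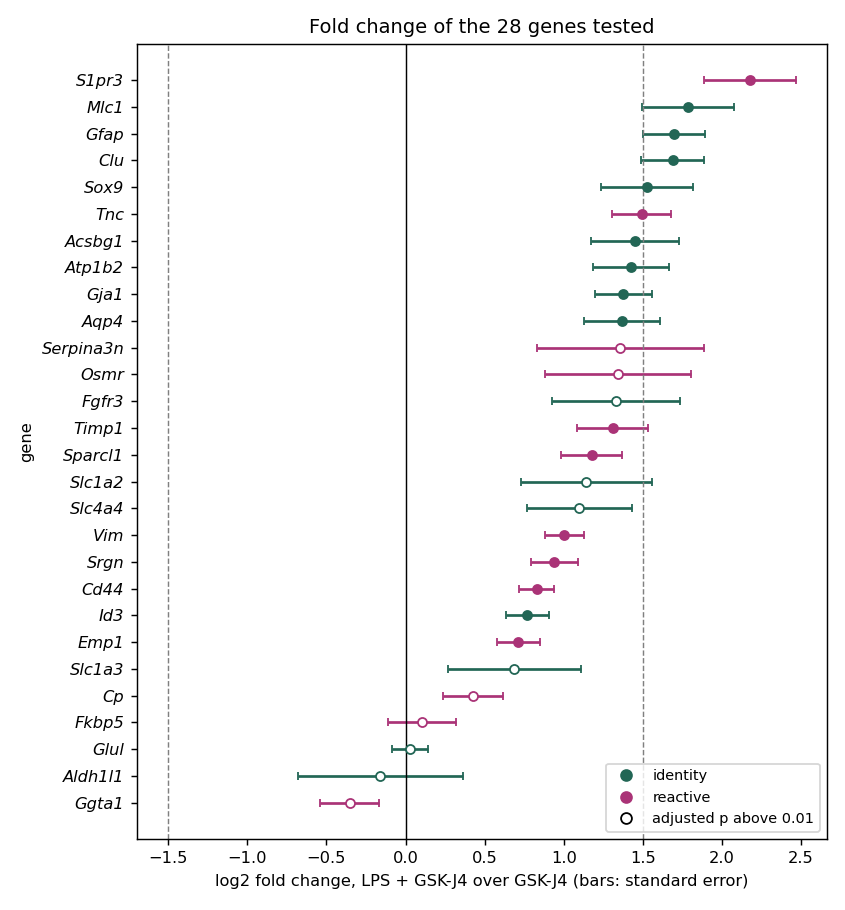
Log2 fold change of LPS + GSK-J4 over GSK-J4 (x axis) for each of the 28 tested members (y axis), with the standard error as bars, 3 libraries per group. Filled points have an adjusted p of at most 0.01 and dashed lines mark a log2 fold change of 1.5 in size. S1pr3 lies highest at 2.18 and Ggta1 lowest at -0.35, and all 17 filled points are to the right of 0.

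The filament genes rose together. Gfap (mm10 chromosome 11, 102887336 to 102900912), the main intermediate filament of astrocytes, was at 18.4, 14.1 and 17.97 CPM in GSK-J4 replicates 1, 2 and 3. In LPS + GSK-J4 it was at 43.3, 53.0 and 66.9 CPM. Each LPS + GSK-J4 library was above every GSK-J4 library, and replicate 3 was the highest. The log2 fold change was 1.70 (standard error, SE, 0.19, adjusted p = 9.28e-06, edgeR), a 3.24-fold difference. The raw counts behind it were 78, 63 and 49 in GSK-J4 and 111, 139 and 162 in LPS + GSK-J4. Vim (chromosome 2, 13573927 to 13582826), the vimentin filament of immature and reactive astrocytes and of many other cells, was the most abundant member. It was at 942, 968 and 1073 CPM in GSK-J4 and at 1709, 1883 and 2382 CPM in LPS + GSK-J4. The groups did not overlap, and the log2 fold change was 1.00 (SE 0.12, adjusted p = 2.02e-05).

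Of the genes of channels and junctions, all 3 that were tested rose. Aqp4 (chromosome 18, 15389496 to 15410982), the water channel of astrocyte endfeet, was at 7.79, 9.43 and 5.87 CPM in GSK-J4 and at 17.6, 23.7 and 19.8 CPM in LPS + GSK-J4. Its log2 fold change was 1.37 (SE 0.24, adjusted p = 0.000507). Gja1 (chromosome 10, 56377330 to 56402513), which encodes the gap junction protein connexin 43, was at 20.1, 17.1 and 24.9 CPM in GSK-J4 and at 46.8, 58.8 and 53.3 CPM in LPS + GSK-J4. Both genes were higher in every LPS + GSK-J4 library than in any GSK-J4 library, and both were below the fold threshold, Gja1 with a log2 fold change of 1.38 (adjusted p = 3.44e-05). Gja1 passed it without GSK-J4 replicate 3 (1.51) and without replicate 3 of both groups (1.52), and Aqp4 without GSK-J4 replicate 2. Mlc1 (chromosome 15, 88955884 to 88979007), a membrane protein of astrocyte endfeet, was at 5.19, 4.49 and 8.43 CPM in GSK-J4 and at 16.4, 17.2 and 26.8 CPM in LPS + GSK-J4. It had the largest change of the identity genes, with a log2 fold change of 1.78 (SE 0.29, adjusted p = 0.00027). Gjb6, the other astrocyte connexin of the list, had 2 counts in GSK-J4 replicate 1 and 0 in the other 5 libraries, which was too few to be tested.

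The transporters differed among themselves. Atp1b2 (chromosome 11, 69599736 to 69605942), the beta subunit of the sodium pump in astrocytes, was at 7.31, 6.73 and 6.60 CPM in GSK-J4 and at 15.6, 17.6 and 22.7 CPM in LPS + GSK-J4. It was the only one of the 5 genes of this group to pass the threshold, with a log2 fold change of 1.42 (SE 0.24, adjusted p = 0.000379). Slc1a2, the glutamate transporter GLT-1, was at 2.12, 3.37 and 2.57 CPM in GSK-J4 and at 7.81, 7.25 and 2.89 CPM in LPS + GSK-J4. LPS + GSK-J4 replicate 3 lay within the range of the GSK-J4 libraries, and the log2 fold change of 1.14 (SE 0.41) did not pass (adjusted p = 0.0546). Without that library the log2 fold change was 1.46 (adjusted p = 0.00608). It was 1.44 without replicate 3 of both groups and did not pass there (adjusted p = 0.0114). Slc1a3, the glutamate transporter GLAST, was at 3.54, 2.69 and 1.47 CPM in GSK-J4 and at 5.46, 3.05 and 4.54 CPM in LPS + GSK-J4. The groups overlapped and the difference did not pass (log2 fold change 0.69, SE 0.42, adjusted p = 0.26).

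Slc4a4, a sodium bicarbonate cotransporter, ranged from 4.03 to 11.3 CPM in GSK-J4 and from 10.1 to 22.1 CPM in LPS + GSK-J4. These ranges overlapped (log2 fold change 1.10, SE 0.33, adjusted p = 0.0242). It passed without GSK-J4 replicate 1 (adjusted p = 0.00834) and without LPS + GSK-J4 replicate 1 (adjusted p = 0.00442). It did not pass without any other single library, with a lowest log2 fold change of 0.85 without GSK-J4 replicate 3 (adjusted p = 0.0749), nor without replicate 3 of both groups (0.78, adjusted p = 0.0786). Glul, the glutamine synthetase that turns glutamate into glutamine, was the most abundant identity gene. It was at 193, 199 and 180.4 CPM in GSK-J4 and at 208, 195 and 183 CPM in LPS + GSK-J4. These ranges overlapped almost wholly, with a log2 fold change of 0.03 (SE 0.11, adjusted p = 0.884) whose sign changed between fits. Per kilobase Glul stood at 57.5 CPM in GSK-J4, above Gfap at 3.99.

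The metabolic genes were Aldh1l1 and Acsbg1. Aldh1l1, an enzyme of folate metabolism widely used as a marker of astrocytes, was at 1.89, 4.26 and 3.67 CPM in GSK-J4 and at 3.51, 0.763 and 4.54 CPM in LPS + GSK-J4. The groups overlapped, and the value of 0.763 CPM rested on 2 counts. The log2 fold change was -0.16 (SE 0.52, adjusted p = 0.864), and its sign changed without replicate 2 of either group. At 2 to 19 counts per library, the precision does not show that its level was alike in the groups. Acsbg1 (chromosome 9, 54604877 to 54661870), an acyl-CoA synthetase for long fatty acids, was at 8.02, 6.51 and 6.23 CPM in GSK-J4 and at 13.7, 16.8 and 27.3 CPM in LPS + GSK-J4. It rose with a log2 fold change of 1.45 (SE 0.28, adjusted p = 0.00112).

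Of the transcription factor and receptor genes, Sox9 and Id3 rose. Sox9 (chromosome 11, 112782224 to 112787760), a transcription factor of astrocytes and their precursors, was at 3.77, 6.29 and 4.03 CPM in GSK-J4 and at 12.9, 12.2 and 16.5 CPM in LPS + GSK-J4. The log2 fold change was 1.53 (SE 0.29, adjusted p = 0.000982), just past the fold threshold, and between 1.31 and 1.82 when libraries were left out. Sox9 was below that threshold without replicate 3 of both groups (1.31). The same held without GSK-J4 replicate 1 (1.36), GSK-J4 replicate 3 (1.45) or LPS + GSK-J4 replicate 3 (1.38). Id3, an inhibitor of bHLH transcription factors, was at 47.7, 42.4 and 42.2 CPM in GSK-J4 and at 73.0, 76.3 and 76.8 CPM in LPS + GSK-J4. Its libraries were closer together than those of most members, and the log2 fold change was 0.77 (SE 0.13, adjusted p = 0.00054). Fgfr3, a receptor of fibroblast growth factors, ranged from 1.65 to 2.69 CPM in GSK-J4 and from 3.82 to 7.81 CPM in LPS + GSK-J4. These ranges did not overlap, but the difference did not pass (log2 fold change 1.33, SE 0.40, adjusted p = 0.0238). Ntsr2, a neurotensin receptor, had at most 3 counts in any library.

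The small binding and secreted proteins were represented by Clu. Clu (chromosome 14, 65968483 to 65981547), the secreted chaperone clusterin, was at 18.6, 26.5 and 29.7 CPM in GSK-J4 and at 70.3, 67.9 and 101 CPM in LPS + GSK-J4. No library of a group lay within the range of the other, and LPS + GSK-J4 replicate 3 was the highest. Clu had a log2 fold change of 1.69 (SE 0.20, adjusted p = 1.1e-05), and it was 1.49 without LPS + GSK-J4 replicate 3. S100b, a calcium-binding protein of astrocytes, had at most 4 counts in any library and was not tested. Fabp7, the brain lipid-binding protein of radial glia and young astrocytes, was not tested either and ranged from 1.80 to 2.60 CPM in GSK-J4 and from 1.65 to 3.82 CPM in LPS + GSK-J4.

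**Figure D2:**
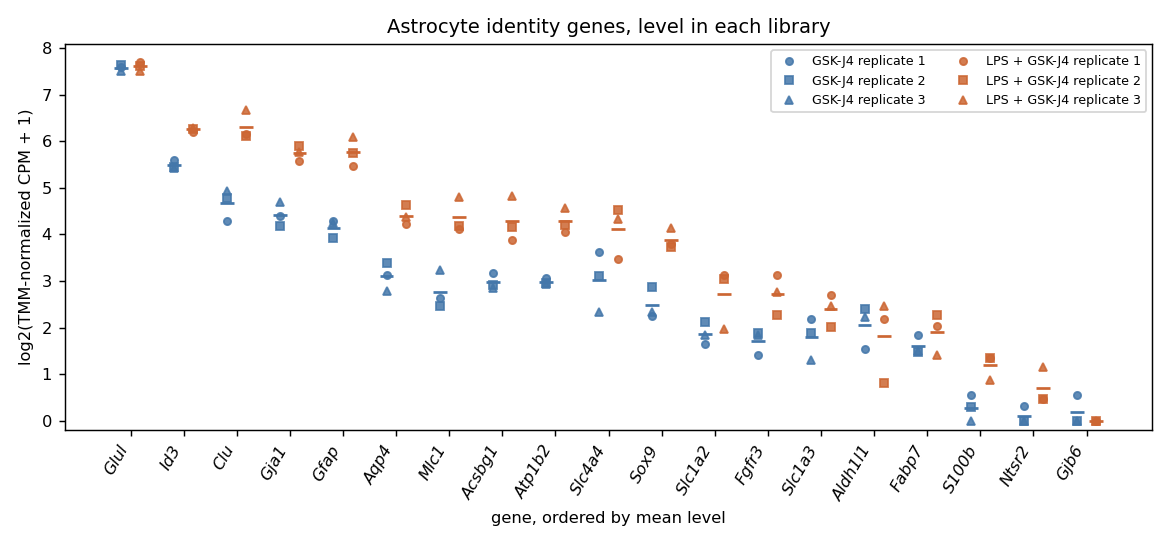
Level of the 19 identity genes found, as log2(CPM + 1) (y axis), in each library, with genes on the x axis in order of mean level. Points are libraries (marker shape gives the replicate number), bars are group means, 3 libraries per group. Glul lies at the same height in both groups, while Id3, Clu, Gja1, Gfap, Aqp4, Mlc1, Acsbg1, Atp1b2 and Sox9 are higher in every LPS + GSK-J4 library.

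The pan-reactive genes, which are induced in astrocytes after several kinds of injury, included the member with the largest change. S1pr3 (chromosome 13, 51408639 to 51422797), a receptor of sphingosine 1-phosphate, was at 6.37, 2.69 and 6.97 CPM in GSK-J4 and at 22.2, 21.0 and 27.3 CPM in LPS + GSK-J4. The lowest LPS + GSK-J4 library was over 3 times the highest GSK-J4 library. S1pr3 had a log2 fold change of 2.18 (SE 0.29, adjusted p = 4.36e-05), a 4.52-fold difference. Cd44, the receptor of hyaluronan, was at 543, 574 and 477 CPM in GSK-J4 and at 946, 995 and 890.3 CPM in LPS + GSK-J4. The groups did not overlap, and replicate 3 was the lowest library of each group. The log2 fold change was 0.83 (SE 0.11, adjusted p = 3.85e-05).

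Timp1 (chromosome X, 20870166 to 20874735), an inhibitor of matrix metalloproteinases, was at 122, 92.7 and 96.1 CPM in GSK-J4 and at 159, 271 and 343 CPM in LPS + GSK-J4. The spread within LPS + GSK-J4 was wide, with replicate 3 at more than 2 times replicate 1. Its log2 fold change was 1.31 (SE 0.22, adjusted p = 0.000906), and without replicate 3 of both groups it was 1.01 and did not pass (adjusted p = 0.226). Osmr, the receptor of oncostatin M, was at 30.2, 13.9 and 8.43 CPM in GSK-J4 and at 29.3, 43.9 and 65.2 CPM in LPS + GSK-J4. GSK-J4 replicate 1 lay above the lowest LPS + GSK-J4 library, and the difference did not pass (log2 fold change 1.34, SE 0.46, adjusted p = 0.0772). Single libraries decided its value. Without GSK-J4 replicate 1 the log2 fold change of Osmr was 1.99 (adjusted p = 0.000254), without LPS + GSK-J4 replicate 3 it was 1.01 (adjusted p = 0.336), and without replicate 3 of both groups 0.75 (adjusted p = 0.337).

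The other pan-reactive genes did not pass. Cp, the ferroxidase ceruloplasmin, ranged from 27.9 to 44.6 CPM in GSK-J4 and from 39.0 to 55.3 CPM in LPS + GSK-J4 (log2 fold change 0.42, adjusted p = 0.119). Serpina3n, a secreted serine protease inhibitor whose close paralogs share fragments that were not counted, was at 1.18, 0.673 and 3.67 CPM in GSK-J4 and at 3.90, 4.58 and 4.13 CPM in LPS + GSK-J4. Its log2 fold change was 1.36 (SE 0.53, adjusted p = 0.0708), and it was 2.17 (adjusted p = 0.00838) without replicate 3 of both groups. Steap4, a metalloreductase, had at most 3 counts in any library.

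Of the genes linked to the A1-type state, which was described after LPS, 1 of the 3 tested rose. Srgn (chromosome 10, 62493833 to 62527451), the proteoglycan serglycin of haematopoietic secretory granules, was at 54.3, 52.3 and 44.0 CPM in GSK-J4 and at 106, 103 and 80.5 CPM in LPS + GSK-J4. As for Cd44, replicate 3 was the lowest library of each group. Its log2 fold change was 0.94 (SE 0.15, adjusted p = 0.000216). Ggta1, an alpha-galactosyltransferase, was at 40.3, 46.2 and 31.9 CPM in GSK-J4 and at 36.7, 25.6 and 31.4 CPM in LPS + GSK-J4. It had the lowest fold change of the members, and the groups overlapped (log2 fold change -0.35, SE 0.19, adjusted p = 0.192). Fkbp5, a co-chaperone of the glucocorticoid receptor, ranged from 12.8 to 16.8 CPM in GSK-J4 and from 13.4 to 17.6 CPM in LPS + GSK-J4 (log2 fold change 0.11, SE 0.21, adjusted p = 0.773). Fbln5, an extracellular matrix protein, was not tested, with 9, 6 and 6 counts in GSK-J4 and 4, 17 and 17 in LPS + GSK-J4. Amigo2, an adhesion protein, had at most 1 count in any library.

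Of the A2-type genes, Emp1, an epithelial membrane protein, was at 112, 105 and 88.4 CPM in GSK-J4 and at 149, 194 and 159.8 CPM in LPS + GSK-J4. The groups did not overlap, with a log2 fold change of 0.71 (SE 0.14, adjusted p = 0.00117). Without LPS + GSK-J4 replicate 2 it did not pass (adjusted p = 0.0161). Slc10a6, a transporter of steroid sulfates, had at most 3 counts in any library.

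Both matrix genes rose. Tnc (chromosome 4, 63959785 to 64047015), the matrix glycoprotein tenascin-C, was at 79.7, 56.8 and 79.6 CPM in GSK-J4 and at 147, 199.95 and 259 CPM in LPS + GSK-J4. Its log2 fold change of 1.49 (SE 0.19, adjusted p = 2.49e-05) lay just below the fold threshold. Sparcl1, the secreted protein hevin, was at 14.9, 11.7 and 13.9 CPM in GSK-J4 and at 27.3, 30.1 and 33.9 CPM in LPS + GSK-J4. Its log2 fold change was 1.18 (SE 0.19, adjusted p = 0.000294). For both genes the groups did not overlap and LPS + GSK-J4 replicate 1 was the lowest of its group.

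**Figure D3:**
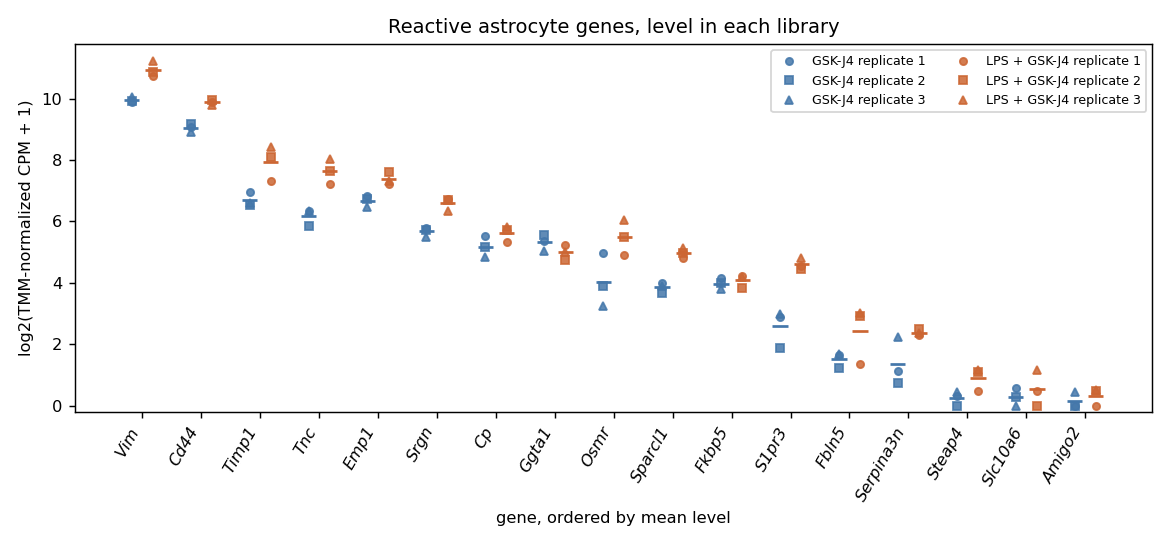
Level of the 17 reactive astrocyte genes, as log2(CPM + 1) (y axis), in each library, with genes on the x axis in order of mean level. Points are libraries (marker shape gives the replicate number) and bars are group means, 3 libraries per group. Vim, Cd44, Timp1, Tnc, Emp1, Srgn, Sparcl1 and S1pr3 are higher in every LPS + GSK-J4 library, while Osmr, Cp, Ggta1 and Fkbp5 overlap.

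Levels of members were set against each other per kilobase of exon. In GSK-J4 the highest were Vim at 210 CPM per kilobase, Timp1 at 117, Cd44 at 78.4, Glul at 57.5, Id3 at 24.6, Srgn at 22.9 and Emp1 at 17.2. Among the microglia markers, Cx3cr1 was at 80.4 and Itgam at 42.6 CPM per kilobase. The next were Tnc at 9.27, Ggta1 at 8.39 and Clu at 7.26. Several genes used as astrocyte markers lay below Glul and Clu, such as Gfap at 3.99 and Mlc1 at 2.16. Slc1a3 was at 0.301 and Slc1a2 at 0.204. The untested S100b, Gjb6 and Ntsr2 were lower still, at 0.156, 0.0588 and 0.0252. In LPS + GSK-J4, Gfap was at 12.9, Mlc1 at 7.19, Gja1 at 5.16 and Slc1a2 at 0.456 CPM per kilobase. Spread between libraries exceeds the gap between many neighbours in this order, such as Mlc1 and Gja1 in GSK-J4.

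The libraries of a group did not hold the members in the same proportions. Of the members with a mean of at least 5 CPM, 11 were identity and 12 reactive genes. In LPS + GSK-J4, replicate 3 was the highest library for 7 of the 11 and for 7 of the 12, and replicate 1 was the lowest for 8 and for 7. In GSK-J4, replicate 1 was the highest for 5 and 8, and replicate 3 was the lowest for 6 and 7. The order of libraries thus differed between the groups, and it also differed between genes, as Cd44 and Srgn show.

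Summed over the 19 identity genes found, the level was 355, 355 and 342 CPM in GSK-J4 and 557, 582 and 634 CPM in LPS + GSK-J4. The means were 351 ± 7.24 and 591 ± 39.3 CPM (SD, n = 3), and a 2-sided exact permutation test over libraries gave p = 0.1, the smallest value that 3 against 3 can give. Glul held a large part of this sum. Without Glul, Id3 and Clu, the 3 genes with the highest mean level, the sum was 94.8, 87.3 and 90.2 CPM in GSK-J4 and 206, 242 and 274 CPM in LPS + GSK-J4, and the exact permutation p was again 0.1. The log2 ratio of the group means was 0.75 with these 3 genes and 1.41 without them.

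A wider list of 27 astrocyte genes that are not members was read in the same way. In the tables, 26 were found and 12 were tested, of which 6 rose and 1 fell. Called higher were Id4, a bHLH inhibitor (log2 fold change 1.97, adjusted p = 0.00246), and Ttyh1, a membrane protein of neural precursors and glia (1.73, adjusted p = 0.00142). Id4 reached the level of the count filter in 0 GSK-J4 libraries, Ttyh1 in 1 and Mt3 in 2, so these 3 were tested through the group where they were high, and the other 3 that rose reached it in every GSK-J4 library. Mt3, Ncan, Sox2 and Ptprz1 also rose, with log2 fold changes of 1.48, 1.10, 1.04 and 0.82. Pla2g7, a secreted phospholipase that is also transcribed in macrophages, fell with a log2 fold change of -0.73 (adjusted p = 0.000661). Kcnj10, the potassium channel of astrocytes, overlapped between groups (log2 fold change 0.26, adjusted p = 0.621). Slc6a11, Fam107a and Cldn10 had no count in any library, which allows at most 3 counts in each. Aldoc, the aldolase of astrocytes, was at 2.36 to 2.93 CPM in GSK-J4 and 4.68 to 5.78 CPM in LPS + GSK-J4 (log2 fold change 0.95, adjusted p = 0.0657).

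Of 21 further genes of the reactive state, 15 were tested, 10 rose and 0 fell. Of the 12 that reached the filter level in every GSK-J4 library 8 rose, while Cxcl10 reached it in 0 and Gbp2 in 2 of these libraries and were tested through LPS + GSK-J4. The 6 called were Cxcl10, Gbp2, Ptx3, Clcf1, Ptgs2 and Hspb1, and the first 4 had the largest changes. The log2 fold change was 6.19 for the chemokine Cxcl10, 3.31 for the GTPase Gbp2, 3.20 for the pentraxin Ptx3 and 2.08 for the cytokine Clcf1. Cxcl10, Gbp2 and Ptgs2 are also induced by LPS in microglia and macrophages. Lcn2, a secreted protein strongly induced in reactive astrocytes, had 0.367 to 2.60 CPM in GSK-J4 and 0.390 to 1.65 CPM in LPS + GSK-J4 and was not tested. As a median, the tested genes had a log2 fold change of 1.25 in this list, 0.91 in the wider astrocyte list, 1.37 in the identity members and 1.00 in the reactive members.

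Markers of other cell types moved with the groups as well. The summed level of 14 microglia markers was 3816 to 4080 CPM in GSK-J4 and 3112 to 3243 CPM in LPS + GSK-J4. Of the 12 tested, 3 fell (Cx3cr1, Csf1r and Laptm5) and 0 rose, with a median log2 fold change of -0.37. Over all genes tested, 5.46% fell and 8.42% rose. The fold change was negative for 10 of the 12 and positive for 2. Without overlap between the groups, 7 were lower and 1 was higher. The latter was Sall1, which did not pass (log2 fold change 1.08, adjusted p = 0.0206, edgeR). The summed level of 12 oligodendrocyte lineage markers was 223 to 253 CPM in GSK-J4 and 401 to 461 CPM in LPS + GSK-J4, and 5 of the 9 tested rose. For 11 neuron markers it was 31.6 to 40.9 CPM and 78.0 to 99.5 CPM, and all 5 that were tested rose, of which Gad1 reached the filter level in only 1 GSK-J4 library, while Rbfox3, Snap25, Syt1, Nefl, Nefm and Slc17a7 were too low to be tested. Of the 7 endothelial markers 2 were tested and Cdh5 rose, and Cldn5 had no count in any library.

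The 10 fibroblast and mural markers varied widely between libraries of a group. Their sum was 552, 187 and 232 CPM in GSK-J4 replicates 1, 2 and 3 and 401, 641 and 876 CPM in LPS + GSK-J4 replicates 1, 2 and 3, so the groups overlapped. Of the 8 tested, only Acta2 rose. The sum of the identity members without their 3 highest genes, given above, ran in the same order as this sum in LPS + GSK-J4. In GSK-J4 it was likewise highest in replicate 1, but it spanned only 87.3 to 94.8 CPM. The endothelial sum also rose from replicate 1 to replicate 3 of LPS + GSK-J4, at 29.3, 46.2 and 64.4 CPM. So did the sums of the reactive members and of the wider astrocyte and reactive lists. The neuron, oligodendrocyte lineage and microglia sums did not run in that order. In LPS + GSK-J4 replicates 1, 2 and 3 the neuron sum was 99.5, 88.5 and 78.0 CPM and the oligodendrocyte lineage sum 415, 401 and 461 CPM. The part of these other cell types in the values of the members was not tested.

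**Figure D4:**
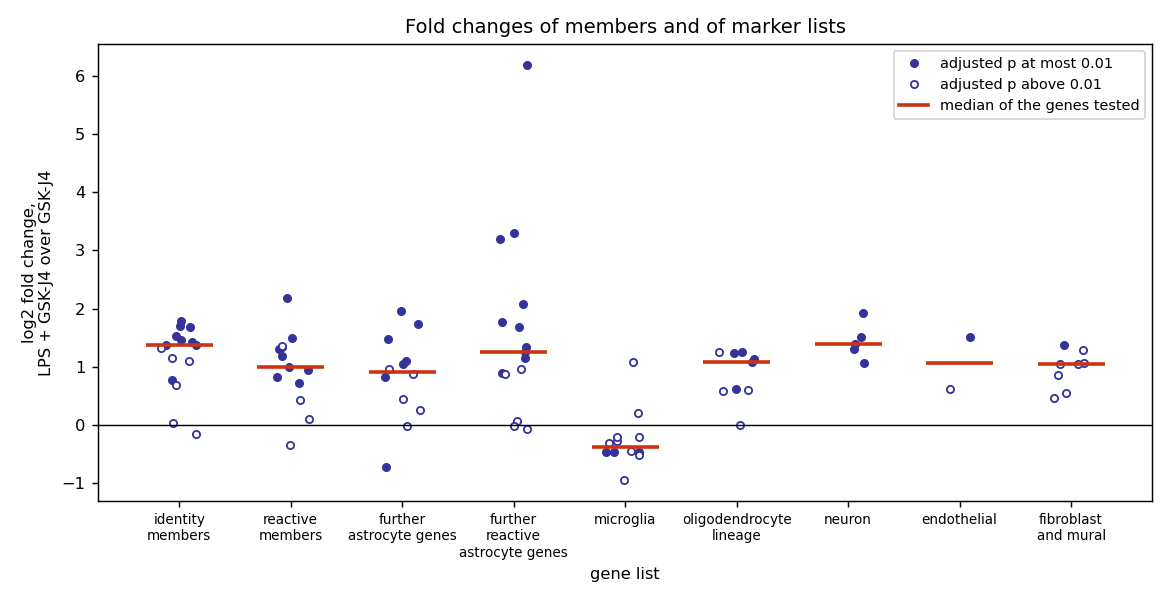
Log2 fold change of LPS + GSK-J4 over GSK-J4 (y axis) for each tested gene of the members and of 7 marker lists (x axis), 3 libraries per group. Filled points have an adjusted p of at most 0.01, and bars are the median of the tested genes of a list, 1.37 for the identity members and -0.37 for the microglia markers. Every list other than the microglia markers has its median above 0.

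The higher share of Rn45s in LPS + GSK-J4 moved with the groups too. With Rn45s, Mir6236 and Lars2 removed before scaling, 17 of the 25 members then tested rose and the same 5 members were called, and the log2 fold change of Gfap was 1.70. With DESeq2's size factors the numbers were again 17 and 5. Without replicate 3 of both groups, 17 members rose and 6 were called, with Sox9 lost and Gja1 and Serpina3n gained. The median log2 fold change of the members tested in that fit was 1.04.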

How the data were processed

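RNA was depleted of rRNA and sequenced from both ends with a directional kit. Per the submitters' processing notes, the authors trimmed reads with Trimmomatic 0.33, aligned them to mm10 with STAR 2.5.1 and deposited raw counts of fragments per gene (unit counts, not normalized). The annotation behind these counts is not given in the sources used here. The reverse-strand column was used, without the 4 lines of unassigned fragments. Between 59.3 and 62.6% of uniquely mapped fragments lay outside genes and stayed out of library sizes.

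Groups and replicate numbers came from titles. The study describes biological replicates from pooled brains, so p-values measure the spread between these samples. TMM scaling and testing used edgeR 4.0.16 under R 4.3.3 (filterByExpr, minimum count 10, robust quasi-likelihood test, no covariate), with Benjamini-Hochberg adjustment over all genes tested. The standard error was taken from the F statistic. DESeq2 1.42.0 was an alternative. The code was tested on simulated data. Positions and exon lengths are from GENCODE M21 (GRCm38), promoters from RefSeq. Only single-place fragments were counted, so genes with close paralogs are uncertain.

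The members and lists were chosen with earlier results of these data known. Values in each library were given for members past the adjusted p and for Gfap, Aqp4, Gja1, Aldh1l1, Slc1a2, Slc1a3 and Sox9. Other values of single genes were added after they were seen, as were the promoter motifs. Single values of some marker genes are not reported here. Python 3.11.15 made the tables and figures.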

Additional observations from a re-analysis of the deposited data

How the results depend on the processing

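The count of members that rose was between 16 and 19 and that of members that fell 0 under every alternative run. Under the unstranded counts, DESeq2's size factors, at least 10 counts per library, removal of the ribosomal features and the replicate number as a block, 5 members were called, and 4 under the DESeq2 Wald test and without a filter, where Sox9 was lost. With the thresholds set to 0.05 for the adjusted p and 1 for the log2 fold change, 15 members were called, and 844 of all genes were higher and 285 lower. With at least 10 counts in every library, 176 genes were called higher, since fewer were tested. Left-out libraries gave 3 to 10 members called, 271 to 374 genes called higher and 79 to 100 called lower.

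The correlation of deviations from the group means between same-numbered libraries was -0.01, 0.12 and 0.30 for replicates 1, 2 and 3. Among differently numbered libraries it reached 0.24, for GSK-J4 replicate 2 with LPS + GSK-J4 replicate 1. These values do not settle whether same-numbered libraries were paired, and a shared origin of the replicate 3 libraries was not tested. With the replicate block, 16 members rose. Timp1 was lost (log2 fold change 1.25, adjusted p = 0.185), and the cause was not tested.

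The log2 ratio of the summed identity genes was 0.68 to 0.79 with libraries left out, 1.41 without the 3 highest genes and 0.91 as a difference of mean log2(CPM + 1). Signs changed for Glul, Aldh1l1 and Fkbp5, none of which passed. Glul was at -0.0170 under the DESeq2 Wald test, at -0.0236 without a filter and at -0.0189 to 0.0752 with libraries left out, Aldh1l1 at -0.60 to 0.30 and Fkbp5 at -0.0218 to 0.226 with libraries left out. Of 383 values of single members under alternatives, 367 kept their direction and side of the adjusted p. Without a filter the median over all genes was 0.12 and that over 36 members 1.22. Depth limits the 8 members that were not tested.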

Other observations

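Genes of other neural cells that were higher in LPS + GSK-J4 included several of young neurons and of the oligodendrocyte lineage. Dcx, a microtubule protein of migrating neurons, was at 10.4, 16.8 and 8.43 CPM in GSK-J4 and at 34.7, 31.3 and 24.0 CPM in LPS + GSK-J4 (log2 fold change 1.30, adjusted p = 0.000955, edgeR). Gad1, the enzyme of GABA synthesis, had a log2 fold change of 1.93 and Stmn2, a protein of growing axons, one of 1.52, and both were called, Gad1 with only 1 GSK-J4 library at the level of the count filter. Olig1, a transcription factor of the oligodendrocyte lineage, rose with a log2 fold change of 1.25. Cnp, an enzyme of myelin-forming cells, overlapped between groups (log2 fold change -0.01, adjusted p = 0.979).

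Counts on the strand opposite to the members were low. Cd44 had the most, with 26, 23 and 7 in GSK-J4 and 25, 16 and 25 in LPS + GSK-J4, beside 1301 to 2608 counts per library on its own strand. Cp had 10, 20 and 9 opposite counts in GSK-J4 and 7, 1 and 5 in LPS + GSK-J4. For no member were the opposite-strand counts of all LPS + GSK-J4 libraries above 3 and above those of every GSK-J4 library.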
